A study of Homo sapiens with 8 samples.

Results

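Nucleoporins are the proteins that build the nuclear pore complex, and the messenger RNAs (mRNAs) of 32 nucleoporin genes were followed here among 55737 genes of an RNA-sequencing experiment in LNCaP cells. The members were chosen by name, as the structural and peripheral proteins of the pore, and all 32 were found in the table by gene symbol. NUPL1 and NUPL2 are the older symbols, used in the table, of NUP58 and NUP42.

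Nuclear pores perforate the nuclear envelope and carry all regulated traffic between nucleus and cytoplasm. Outer and inner rings form the scaffold, membrane proteins anchor it in the envelope, and central proteins rich in phenylalanine-glycine repeats form the sieve through which transport receptors pass. Filaments reach into the cytoplasm and a basket projects into the nucleus. Many of the repeat-bearing proteins, NUP62 foremost among them, are heavily modified with O-linked N-acetylglucosamine (O-GlcNAc) by the enzyme O-GlcNAc transferase (OGT).

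LNCaP cells are an established line of human prostate cancer, derived from a lymph node metastasis. The cells received both agents together (Combination, 40 µM OSMI-2 plus 0.5 µM AT7519), 40 µM OSMI-2, 0.5 µM AT7519, or a control treatment (Control), each for 4 hours, with 2 libraries a group and 8 in all. The series' design gives these doses in µM, whereas its treatment protocol writes mM. OSMI-2 inhibits OGT, and AT7519 inhibits cyclin-dependent kinases, among them CDK9, which releases paused RNA polymerase II into productive transcription. What each agent did alone and what OSMI-2 added to AT7519 are the questions that the 4 groups allow. Nothing in the labels says that the replicates came from separate cultures, so every p-value covers only differences among these 8 libraries and their spread may be technical.

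The libraries held 60152710 to 154367238 reads in genes, and 3 reads corresponded to 1.76 to 5.47 normalised counts, far under the level of any nucleoporin. The 8 luminal prostate markers summed to 378848 to 512597 normalised counts per library and the 3 leukocyte markers to at most 11.8. OGT itself averaged 38386 normalised counts in Combination libraries, 30875 with OSMI-2, 26280 with AT7519 and 23919 in Control. Its AT7519 libraries, at 23384 and 29175, lay on both sides of the Control libraries, at 24330 and 23509. The 13 mitochondrial mRNAs made up 6.57 to 7.73% of reads in the 4 libraries with AT7519, against 4.45 to 5.53% in the 4 without it. The 3 basal markers summed to 41.8 to 106 normalised counts per library, and of the 3 endothelial markers 2 were in the table, led by VWF with a mean of 1353, and summed to 1132 to 1506. Of the 4 fibroblast markers, 2 averaged at least 10 normalised counts, led by COL1A1, and their summed mean was 3935 in Combination libraries, 2550 with OSMI-2, 3529 with AT7519 and 2506 in Control. The part of the mitochondrial and marker differences in the results was not tested. In RNA from whole cultures, less RNA per cell and fewer cells expressing a gene cannot be told apart.

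All members were abundant. Divided by the length of exons in the GENCODE 29 annotation, the Control level ran over the 32 genes from 341 normalised counts per kilobase of exon for POM121C to 2709 for NDC1. NDC1 was followed by RANBP2 (2681), GLE1 (2486), NUP205 (2469) and AHCTF1 (2151), and the low end held POM121C, POM121 (377), NUP35 (477) and NUP214 (493). Neighbours in this order were not tested against each other, and the lengths come from a later genome build than the counts. Another protein-coding gene overlaps NUP62 (IL4I1), NUP98 (CHRNA10) and NUP188 (AL672142.1) on the same strand. On the opposite strand NUP43, NUP62, NUP88, NUP98, NUP188, RAE1 and TPR are overlapped, and no source used here says whether counting was by strand. With both agents the order changed: NUP153 had 453 normalised counts per kilobase in Combination libraries and 1686 in Control, and AHCTF1 had 705 in Combination libraries and 2151 in Control.

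**Figure D1:**
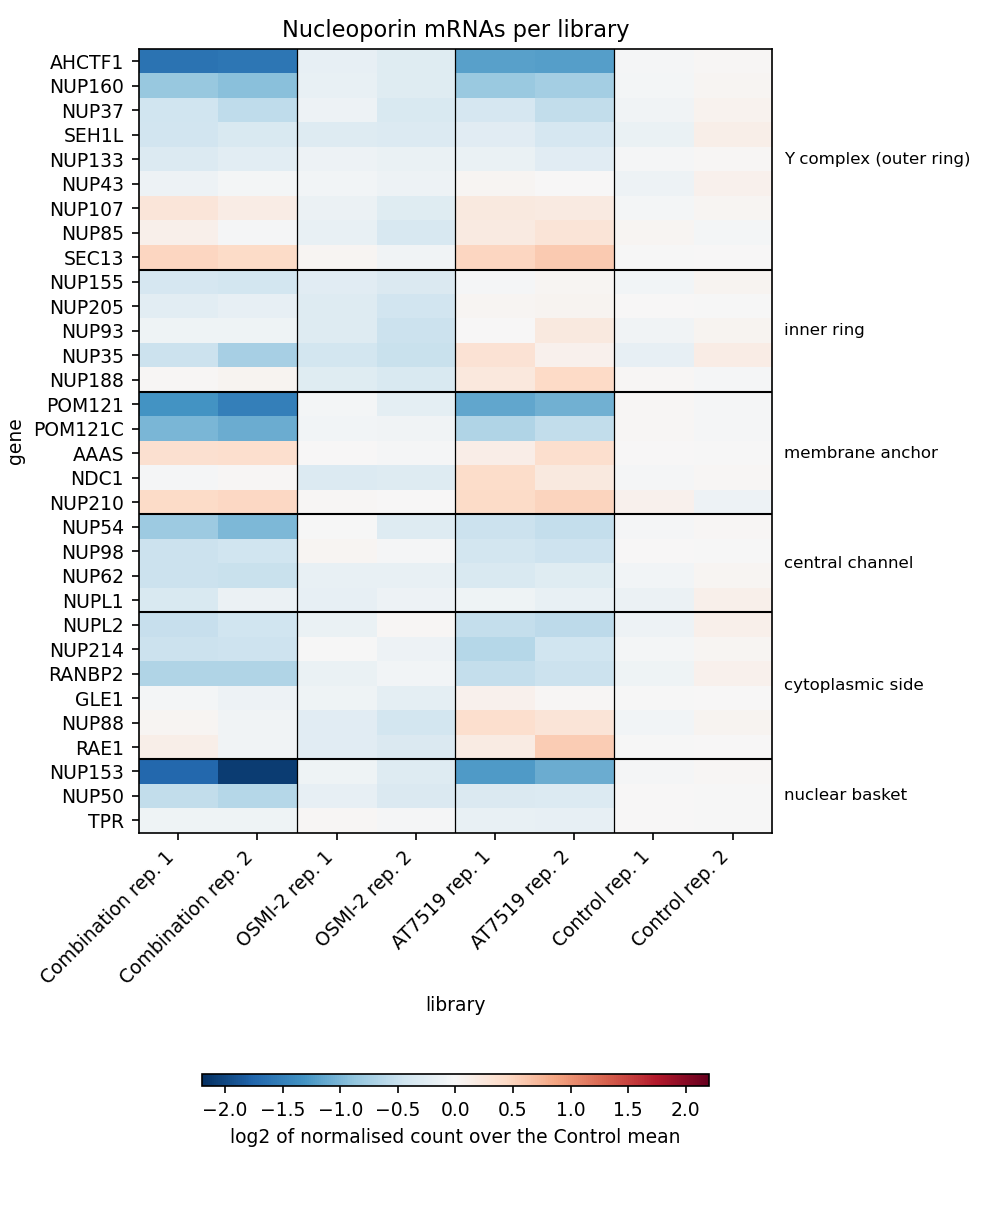
The heat map gives each nucleoporin gene (rows, grouped by place in the pore) in each of the 8 libraries (columns) as the log2 of its normalised count over the Control mean. Blue cells for AHCTF1, NUP153 and POM121 mark their low levels in the 4 libraries with AT7519. SEC13 and NUP210 are red in the same libraries, and all 5 inner ring genes are pale blue in both OSMI-2 libraries. With OSMI-2, 29 of all 32 members were fitted below 0 against Control.

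The sequence before the gene's start is shown for 3 members described below: NUP153, the member with the lowest fitted change in Combination libraries against Control, POM121C, which also fell, and SEC13, which rose. The windows of POM121C and SEC13 hold the motif marked here in capitals and that of NUP153 does not. The sequences are the 250 bases before the annotated start, read from the RefSeq annotation of GRCh38.p14, all on the minus strand and written 5′ to 3′. They lie at chr6:17706926-17707175, chr7:75486300-75486549 and chr3:10321113-10321362. Capitals mark CCGGAA on either strand, the core motif of ETS transcription factors, written TTCCGG where it reads on the opposite strand. SEC13 has 2 listed windows, of which the one shown was used.
NUP153: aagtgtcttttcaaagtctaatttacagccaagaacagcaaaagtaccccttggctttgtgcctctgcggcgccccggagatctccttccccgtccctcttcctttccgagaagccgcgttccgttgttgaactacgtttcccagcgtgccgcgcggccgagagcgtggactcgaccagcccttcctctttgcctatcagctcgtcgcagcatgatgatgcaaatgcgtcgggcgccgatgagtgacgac
POM121C: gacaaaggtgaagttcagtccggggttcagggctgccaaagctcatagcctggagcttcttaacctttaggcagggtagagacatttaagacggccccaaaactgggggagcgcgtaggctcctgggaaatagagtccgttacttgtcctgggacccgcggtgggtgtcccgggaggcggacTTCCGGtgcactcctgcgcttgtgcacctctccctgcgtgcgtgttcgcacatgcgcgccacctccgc
SEC13: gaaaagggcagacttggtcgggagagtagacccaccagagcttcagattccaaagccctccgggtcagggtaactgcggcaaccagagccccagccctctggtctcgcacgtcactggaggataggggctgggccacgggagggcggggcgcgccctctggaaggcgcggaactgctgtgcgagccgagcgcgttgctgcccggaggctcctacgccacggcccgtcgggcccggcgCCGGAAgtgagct

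The same window was found for 29 of the 32 members, all except AHCTF1, NUP43 and GLE1. CCGGAA was present on either strand in 15 of the 29 (51.7%), against 14.8% of 27305 windows of the same length over all genes. The TATA box motif TATAAA was present in 0 of 29 members, against 11.1% of all windows. CCAAT was present in 10 members (34.5%, against 33% of all windows), the paired NRF1 half-sites (GCGC, any base, then TGCGC) in 4 (13.8%, against 5.53%) and the E-box CACGTG in 2 (6.9%, against 6.49%), each searched on both strands, and matches of different motifs could overlap. Member windows were richer in G and C, with a median GC content of 62.8% and a median of 22 CpG dinucleotides, against 58% and 11 over all windows. No share among windows of like GC content was computed, so the part of this richness in the motif shares was not tested. The 15 members with CCGGAA had a median log2 change against Control of -0.47 with the Combination and -0.31 with AT7519, and the 14 without it -0.15 with the Combination and 0.080 with AT7519. With OSMI-2 the order was the other way, at -0.145 for members with CCGGAA and -0.221 for those without. The ranges overlapped, with AT7519 from -1.105 to 0.518 with CCGGAA and from -1.168 to 0.458 without it. The differences between these medians were not tested. A match describes these letters only and shows no binding of a factor.

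The mRNAs of several nucleoporins fell with AT7519, and fewer rose on the deposited scale. AHCTF1, the protein that docks the outer ring on chromatin and seeds pore assembly after mitosis, fell 2.3-fold against Control, NUP153 of the nuclear basket fell 2.25-fold, and the membrane anchor POM121 fell 2.15-fold. SEC13 of the outer ring, also a coat protein of vesicles that leave the endoplasmic reticulum, rose 1.43-fold, and the membrane protein NUP210 rose 1.37-fold. With limma and Benjamini-Hochberg adjustment over all 19393 genes tested, 16 of 32 members fell (27.2% of all genes tested fell) and 9 rose (26% of all genes rose) at an adjusted p below 0.05, whereas scaling the libraries to equal totals gave 0 rises and 21 falls, and scaling to equal mitochondrial mRNAs 0 rises and 32 falls. With equal totals the median was -0.49 log2 over the members and -0.34 over all genes tested, of which 43.1% fell and 10.5% rose. With equal mitochondrial mRNAs these medians were -1.06 and -0.91, and 75.6% of all genes tested fell and 1.97% rose. As deposited, the share of members that rose was near that of all genes. The median log2 change was -0.15 over the members and -0.0042 over all genes tested. The number of rises was 4 without Control replicate 1, 5 without Control replicate 2 and 5 without AT7519 replicate 2, and the number of falls was between 11 and 16 without any 1 library.

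With both agents, NUP153 fell 3.75-fold in Combination libraries against Control, AHCTF1 3.05-fold, POM121 2.66-fold and its paralog POM121C 2.06-fold. Of 32 members, 18 fell (27.6% of all genes tested) and 4 rose (26.3% of all genes tested), the 4 being SEC13, NUP210, AAAS and NUP107. Scaling to equal totals gave 26 falls (38%) and 0 rises (13.7%), and scaling to equal mitochondrial mRNAs 32 falls (75.2%) and 0 rises (2.19%). The median log2 change was -0.32 over the members, against 0.022 over all genes tested. With equal totals these were -0.58 and -0.23, with equal mitochondrial mRNAs -1.30 and -0.95, and with equal upper quartiles -0.18 and 0.16. This comparison shares its Control libraries with the one of AT7519, so the values of both are set side by side below and no overlap is read from them.

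OSMI-2 alone moved the nucleoporins little. NUP205 fell 1.28-fold and NUP93 fell 1.3-fold against Control, both scaffold proteins of the inner ring. These were 2 of 32 members, where 2.38% of all genes tested fell, and 0 members rose, where 0.645% of all genes rose. At an unadjusted p below 0.05 limma gave 14 members lower (11.7% of all genes tested) and 0 higher (6.14%), edgeR on recovered reads called 3 lower (2.68% of all genes tested) and 0 higher (0.758%), and DESeq2 called 10 lower (5.68%) and 0 higher (2.04%). Both OSMI-2 libraries lay below both Control libraries in 21 of 32 members (30.1% of all genes tested) and above both in 0 (23.5%). The median log2 change was -0.17 over the members and -0.018 over all genes tested, and with equal totals these were -0.098 and 0.057. With equal mitochondrial mRNAs the median was -0.30 over the members and -0.14 over all genes tested. The count of 2 rests on single libraries: it was 0 without either Control library or either OSMI-2 library, 1 without either Combination library, 6 without AT7519 replicate 1 and 5 without AT7519 replicate 2. It was also 0 with equal totals (0.608% of all genes tested), with equal upper quartiles (0.794%) or without a variance trend (0%). With equal mitochondrial mRNAs it was 8 (6.05%).

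**Figure D2:**
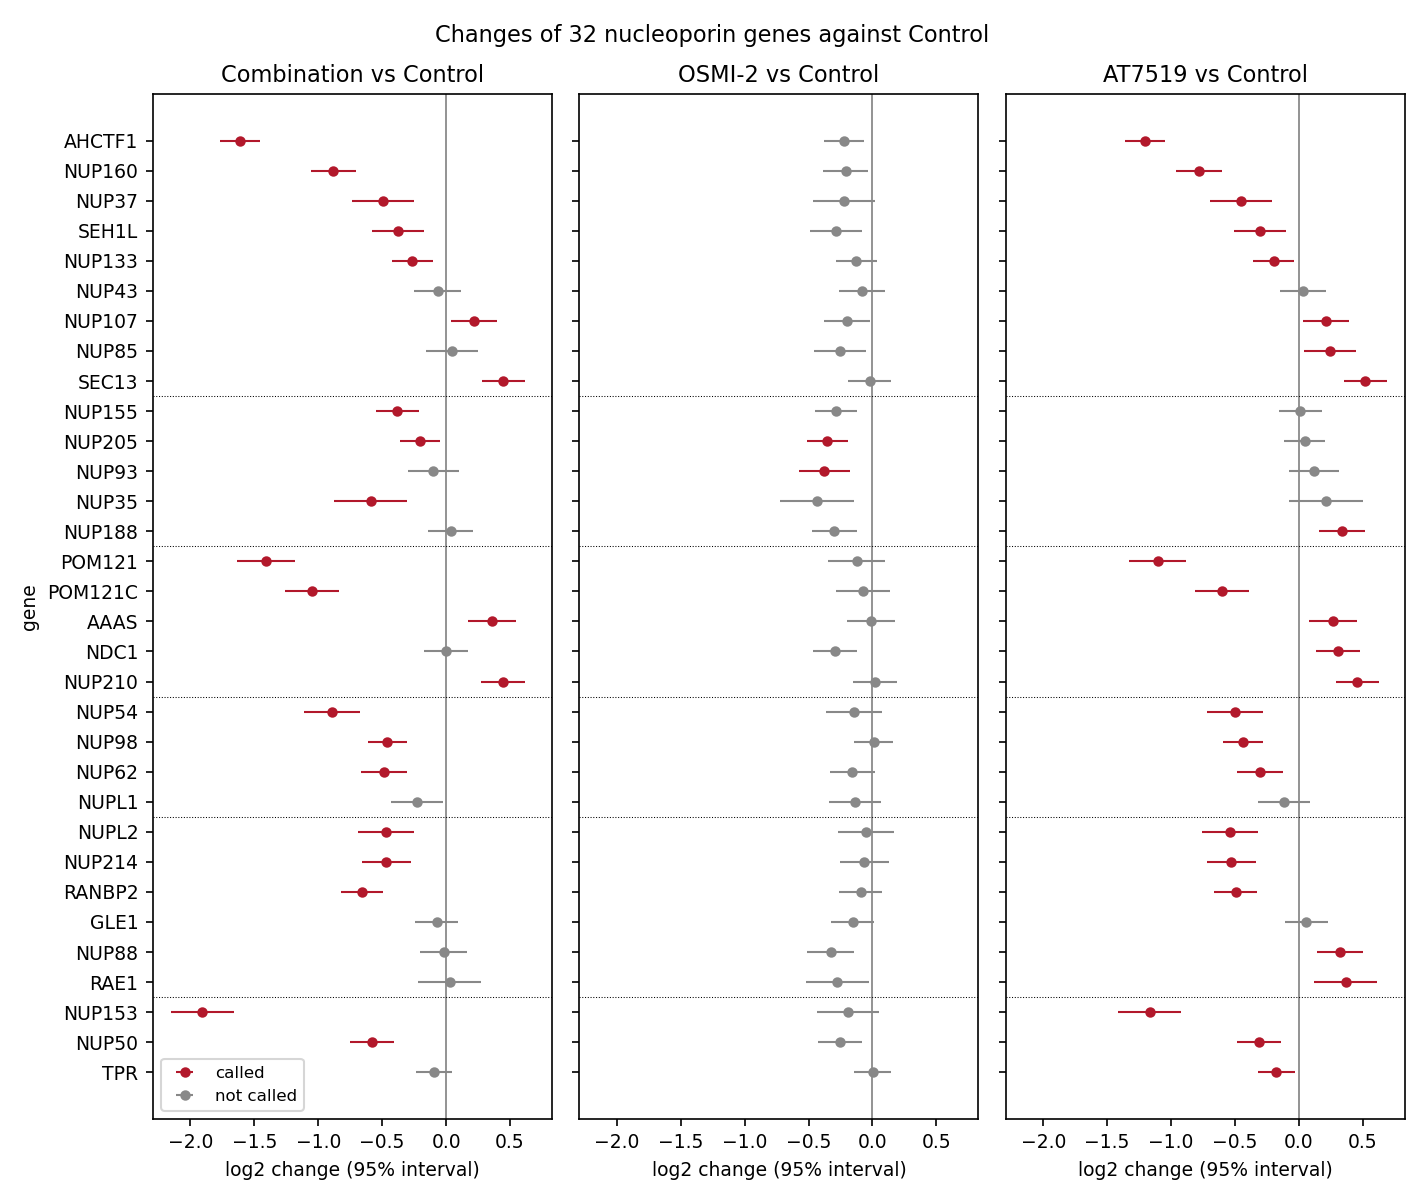
Fitted log2 changes against Control (horizontal axis, with 95% intervals) of the 32 nucleoporin genes (rows, divided by place in the pore), for the Combination (left), OSMI-2 (middle) and AT7519 (right). Red points are called at an adjusted p below 0.05: 22 in the Combination panel (53.9% of all genes tested were called), 2 in the OSMI-2 panel, both in the inner ring (3.02% of all genes), and 25 in the AT7519 panel (53.2% of all genes).

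The Y complex, the outer ring of the scaffold, held both a large fall and the largest rise. AHCTF1 had normalised counts of 6673 and 6852 in Combination libraries, 18175 and 17259.7 with OSMI-2, 9021 and 8940.1 with AT7519 and 20279.6 and 21006 in Control. The 4 groups did not overlap, with Combination lowest and Control highest. Its fitted log2 change was -1.20 (SE 0.073, adjusted p = 4.41e-08) with AT7519, -1.61 (SE 0.073, adjusted p = 3.23e-09) with the Combination and -0.22 (SE 0.073, adjusted p = 0.118) with OSMI-2, and its pseudogene AHCTF1P1 was counted at 1.49 to 1.96% of its level.

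SEC13 had normalised counts of 12044 and 11684 in Combination libraries, 8922 and 8240.4 with OSMI-2, 12038 and 12915 with AT7519 and 8624 and 8787 in Control. All libraries with AT7519, alone or combined, lay above all libraries without it, and the OSMI-2 libraries spanned both Control values. The log2 change was 0.52 (SE 0.078, adjusted p = 7.03e-05) with AT7519 and 0.45 (SE 0.078, adjusted p = 0.000233) with the Combination, but -0.40 and -0.53 with libraries scaled to equal mitochondrial mRNAs.

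NUP160, a core Y complex protein, fell with AT7519 by a log2 change of -0.78 (SE 0.083, adjusted p = 3.06e-06). NUP37 fell by a log2 change of -0.45, a call lost without Control replicate 2 (adjusted p = 0.0507), and SEH1L also fell, at -0.31, a call lost without Control replicate 2 or AT7519 replicate 2 (adjusted p up to 0.216). The log2 fall of NUP133 was -0.20, lost without either Control library, either OSMI-2 library or AT7519 replicate 2 (adjusted p up to 0.184). NUP107 and NUP85 rose by 0.21 and 0.24 and turned to -0.13 and -0.10 with equal totals. The NUP107 call was lost without either Control library, either OSMI-2 library or either AT7519 library (adjusted p up to 0.232), and that of NUP85 without either Control library or AT7519 replicate 2 (adjusted p up to 0.2). NUP43 gave 0.032 and was called in no comparison. In the Combination, NUP160 (-0.88), NUP37 (-0.49), SEH1L (-0.37) and NUP133 (-0.26) also fell against Control, and NUP107 rose by 0.22. Of these calls, that of SEH1L was lost without Control replicate 2 (adjusted p = 0.0826), that of NUP133 without Control replicate 2 or Combination replicate 1 (adjusted p up to 0.053) and that of NUP107 without either Control library or Combination replicate 1 (adjusted p up to 0.207).

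The inner ring carried both calls of OSMI-2 alone, and all 5 of its members had negative fitted changes, between -0.28 and -0.44. Members elsewhere in the pore were in that range too, among them NUP88 (-0.33), NDC1 (-0.29) and SEH1L (-0.29). Of all 32 members, 29 were fitted below 0 with OSMI-2 and 3 above. NUP205 had normalised counts of 16060.1 and 16623 in Combination libraries, 15481 and 14007 with OSMI-2, 19338 and 19499 with AT7519 and 18949 and 18672 in Control. The groups did not overlap, and OSMI-2 was lowest and AT7519 highest. NUP205 changed by -0.35 (SE 0.074, adjusted p = 0.0242) with OSMI-2 and by -0.20 (SE 0.074, adjusted p = 0.0321) with the Combination, and it was fitted at 0.046 (SE 0.074, adjusted p = 0.632) with AT7519. The OSMI-2 call was lost without either Control library or either OSMI-2 library (adjusted p up to 0.285), and the Combination call without either Control library or either Combination library (adjusted p up to 0.137).

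NUP93, which links the inner ring to the central channel, had normalised counts of 14587 and 14553 in Combination libraries, 12852 and 11249.9 with OSMI-2, 15711 and 18167 with AT7519 and 14880.4 and 16355 in Control. OSMI-2 libraries were below all others, both Combination libraries lay just below both Control libraries, and AT7519 and Control overlapped. Its log2 change with OSMI-2 was -0.38 (SE 0.091, adjusted p = 0.0417), lost without either Control library, either OSMI-2 library or either Combination library (adjusted p up to 0.448).

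NUP35, an inner ring protein that touches the membrane, had normalised counts of 1386 and 1167 in Combination libraries, 1455 and 1376 with OSMI-2, 2392 and 2057 with AT7519 and 1703 and 2156 in Control. Combination and OSMI-2 libraries overlapped each other and lay below all AT7519 and Control libraries, which also overlapped. It fell with the Combination by -0.59 (SE 0.13, adjusted p = 0.00186), and its change with OSMI-2 was -0.44 (SE 0.13, adjusted p = 0.0937).

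NUP155, the ring's other membrane-contacting member, had normalised counts of 9295 and 9045 in Combination libraries, 10075 and 9539 with OSMI-2, 11772 and 12315 with AT7519 and 11469.5 and 12431 in Control. Combination was lowest, OSMI-2 next, and AT7519 lay within the Control range. Its log2 change was -0.38 (SE 0.078, adjusted p = 0.000815) with the Combination and -0.28 (SE 0.078, adjusted p = 0.0641) with OSMI-2. NUP188, a relative of NUP205, rose with AT7519 by 0.34 (SE 0.082, adjusted p = 0.00315), which was -0.0055 with equal totals, and gave 0.038 with the Combination and -0.30 with OSMI-2 (adjusted p = 0.0671). The gene SH3GLB2 overlaps NUP188 on the opposite strand.

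The membrane anchors moved in opposite directions with AT7519. POM121 had normalised counts of 1483 and 1308 in Combination libraries, 3605 and 3202 with OSMI-2, 1669 and 1772 with AT7519 and 3764 and 3639 in Control. No 2 groups overlapped, and Combination was lowest. It fell by a log2 change of -1.11 (SE 0.11, adjusted p = 1.2e-06) with AT7519 and by -1.41 (SE 0.11, adjusted p = 1.09e-07) with the Combination, and was fitted at -0.12 with OSMI-2. POM121C is a near-identical copy, so that reads can be shared between both genes and neither value is certain. POM121C fell by a log2 change of -0.60 (SE 0.098, adjusted p = 0.000138) with AT7519 and by -1.05 (SE 0.098, adjusted p = 7.76e-07) with the Combination, and the further copy POM121B was counted at 2.8 to 5.53% of POM121.

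NUP210, whose large domain lies in the lumen of the envelope, had normalised counts of 21104 and 21436 in Combination libraries, 15967 and 15739 with OSMI-2, 20916 and 22055 with AT7519 and 16755 and 14589.5 in Control. Every library with AT7519 lay above every library without it, and both OSMI-2 values lay between the Control values. NUP210 rose by 0.46 (SE 0.079, adjusted p = 0.000224) with AT7519 and by 0.44 (SE 0.079, adjusted p = 0.000273) with the Combination, and these were -0.46 and -0.53 with equal mitochondrial mRNAs.

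AAAS, a pore protein held at the membrane by NDC1, had normalised counts of 7969 and 8077 in Combination libraries, 6264 and 6139.9 with OSMI-2, 6945 and 8132 with AT7519 and 6298 and 6222 in Control. Its AT7519 and Combination libraries were above the rest, with the AT7519 pair far apart. AAAS rose by 0.36 (SE 0.087, adjusted p = 0.00306) with the Combination, a call kept without each library, and by 0.26 (SE 0.087, adjusted p = 0.0201) with AT7519, lost without either Control library or AT7519 replicate 2 (adjusted p up to 0.2). With equal totals the AT7519 value was -0.079 and the Combination call was lost. With equal mitochondrial mRNAs the Combination value was -0.62. NDC1, which recruits AAAS, rose by 0.31 with AT7519, lost without AT7519 replicate 1 (adjusted p = 0.0607) and -0.035 with equal totals, and was fitted at 0.0016 with the Combination.

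**Figure D3:**
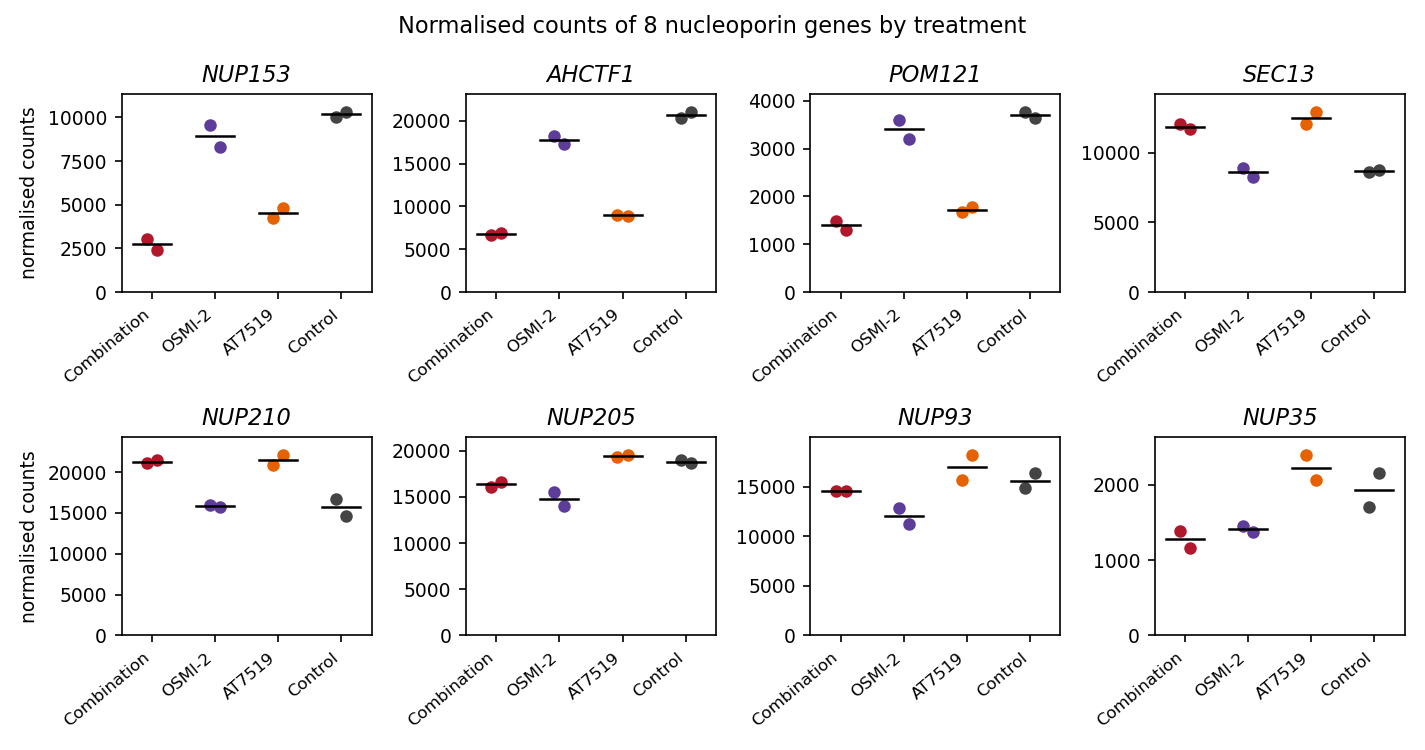
Normalised counts (vertical axes, from 0) of 8 nucleoporin genes in each library (points) with the group mean (line), in Combination, OSMI-2, AT7519 and Control. NUP153 is lowest in the Combination (3066 and 2400.0) and highest in Control (10033 and 10305), while NUP205 is lowest with OSMI-2.

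Of the central channel proteins, which carry the phenylalanine-glycine repeats, 3 of 4 fell with the Combination, where 27.6% of all genes tested fell, and 3 of 4 with AT7519, where 27.2% fell. NUP62, a classic bearer of O-GlcNAc, had normalised counts of 4137 and 4065 in Combination libraries, 5149 and 5129 with OSMI-2, 4547 and 4749.7 with AT7519 and 5526 and 5942 in Control. The groups did not overlap, in the order Combination, AT7519, OSMI-2 and Control from low to high. Its log2 change was -0.48 (SE 0.083, adjusted p = 0.000207) with the Combination, -0.16 (SE 0.083, adjusted p = 0.36) with OSMI-2 and -0.30 (SE 0.083, adjusted p = 0.00703) with AT7519, the last lost without Control replicate 2 (adjusted p = 0.072). NUP62 overlaps IL4I1 on the same strand, so reads may be shared.

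NUP98, whose gene also encodes the Y complex protein NUP96, had normalised counts of 11744 and 12002 in Combination libraries, 16816 and 16023 with OSMI-2, 12271 and 11855 with AT7519 and 16411 and 16238 in Control. Libraries with AT7519 lay well below those without it, Combination and AT7519 overlapped, and both Control values lay between the OSMI-2 values. NUP98 fell by a log2 change of -0.44 (SE 0.072, adjusted p = 0.000148) with AT7519 and by -0.46 (SE 0.072, adjusted p = 8.75e-05) with the Combination, and OSMI-2 gave 0.008 with a 95% interval of -0.15 to 0.16. NUP54, a partner of NUP62, fell by a log2 change of -0.50 with AT7519 and -0.89 with the Combination. NUPL1, the other partner, was called in no comparison and was fitted at -0.23 (SE 0.095, adjusted p = 0.0552) with the Combination.

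On the cytoplasmic side, RANBP2, the giant filament protein that binds Ran and acts as a SUMO ligase, had normalised counts of 20949 and 20772 in Combination libraries, 29895 and 31821 with OSMI-2, 22992 and 23776 with AT7519 and 30724 and 35242 in Control. Combination was lowest and AT7519 next, with no overlap, and OSMI-2 overlapped Control. RANBP2 fell by a log2 change of -0.49 (SE 0.078, adjusted p = 0.00011) with AT7519 and by -0.66 (SE 0.078, adjusted p = 7.41e-06) with the Combination, and its RGPD relatives together were counted at 1.4 to 1.94% of it.

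NUP214, a filament protein that binds the export helicase and the export receptor, had normalised counts of 4641 and 4681 in Combination libraries, 6376 and 5936 with OSMI-2, 4195 and 4752 with AT7519 and 6261 and 6624 in Control. Combination and AT7519 overlapped each other and lay below OSMI-2 and Control, which also overlapped. It fell by a log2 change of -0.53 (SE 0.089, adjusted p = 0.000184) with AT7519 and by -0.47 (SE 0.089, adjusted p = 0.000491) with the Combination. NUP88, its binding partner, went the other way: NUP88 rose with AT7519 by 0.32 (SE 0.085, adjusted p = 0.00554), lost without Control replicate 1 (adjusted p = 0.0632) and -0.021 with equal totals, and was fitted at -0.019 with the Combination.

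RAE1, which binds NUP98 and exported mRNA, had normalised counts of 5066 and 4386 in Combination libraries, 3907 and 3725 with OSMI-2, 5223 and 6779 with AT7519 and 4574 and 4662 in Control. AT7519 was highest with its libraries far apart, the Combination values lay on both sides of Control, and OSMI-2 was lowest. RAE1 rose with AT7519 by 0.37 (SE 0.12, adjusted p = 0.0152), lost without either Control library or AT7519 replicate 2 (adjusted p up to 0.205). NUPL2, which sits with GLE1 at the export helicase, fell by a log2 change of -0.54 (SE 0.1, adjusted p = 0.000455) with AT7519 and -0.47 with the Combination. GLE1, the activator of that helicase, was called in no comparison, at 0.057 with AT7519 and -0.074 with the Combination.

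The nuclear basket held the largest fitted fall of the Combination. NUP153, which binds importins, chromatin and the membrane, had normalised counts of 3066 and 2400.0 in Combination libraries, 9559 and 8313 with OSMI-2, 4271 and 4794 with AT7519 and 10033 and 10305 in Control. Each group lay apart from the others, in the order Combination, AT7519, OSMI-2 and Control from low to high. NUP153 averaged 2733 ± 471 in Combination libraries, 8936 ± 881 with OSMI-2, 4533 ± 370.3 with AT7519 and 10169 ± 192 in Control (SD, n = 2 each). It fell by a log2 change of -1.91 (SE 0.11, adjusted p = 1.92e-08) with the Combination and by -1.17 (SE 0.11, adjusted p = 1.5e-06) with AT7519, and was fitted at -0.19 (SE 0.11, adjusted p = 0.435) with OSMI-2. Both falls held in every alternative run.

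TPR, the coiled-coil filament of the basket, had normalised counts of 24554 and 24409.9 in Combination libraries, 26528 and 25776 with OSMI-2, 23298 and 22964 with AT7519 and 26309.9 and 25981 in Control. AT7519 was lowest and the Combination between it and Control, and OSMI-2 spanned the Control values. TPR fell with AT7519 by -0.18 (SE 0.067, adjusted p = 0.0384), lost without either Control library, either OSMI-2 library or either AT7519 library (adjusted p up to 0.133), and was fitted at -0.095 with the Combination (adjusted p = 0.253). NUP50, which binds NUP153 and importin alpha, fell by a log2 change of -0.31 with AT7519 and -0.58 with the Combination.

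What OSMI-2 added to AT7519 was a set of falls and 0 rises. NUP35 fell 1.74-fold in Combination libraries against AT7519 libraries, NUP153 1.67-fold, POM121C 1.36-fold, AHCTF1 1.33-fold and NUP155 1.31-fold. In all, 11 of 32 members fell (12.5% of all genes tested) and 0 rose (7.21%). Among genes averaging at least 50 normalised counts, 16.5% fell and 9.05% rose. At an unadjusted p below 0.05 limma gave 15 members lower and 0 higher (18.8% and 13.7% of all genes tested). From recovered reads, edgeR called 9 lower (10.3% of all genes tested) and 0 higher (7.72%), and DESeq2 13 lower (14.7%) and 0 higher (7.04%). Both Combination libraries lay below both AT7519 libraries in 20 of 32 members (30.6% of all genes tested) and above both in 2, TPR and NUPL2 (25%). NUP35 had 1386 and 1167 normalised counts in Combination libraries, against 2392 and 2057 with AT7519, a log2 change of -0.80 (SE 0.13, adjusted p = 0.00118). The change was -0.74 (SE 0.11, adjusted p = 0.00069) for NUP153, -0.41 (SE 0.073, adjusted p = 0.00178) for AHCTF1 and -0.39 (SE 0.078, adjusted p = 0.00343) for NUP155, and these 4 calls were kept without each library. The inner ring gave 4 of its 5 members, NUP35, NUP155, NUP188 (-0.30) and NUP205 (-0.25). The remaining calls were POM121C (-0.45), NUP54 (-0.39), NUP88 (-0.34), NDC1 (-0.31) and NUP50 (-0.27). The median log2 change was -0.17 over the members and -0.017 over all genes tested. With equal totals these were -0.088 and 0.066, and with equal upper quartiles -0.074 and 0.081. Of all genes tested, 7.91% fell with equal totals, 7.43% with equal upper quartiles and 2.58% without a variance trend. The count of 11 became 7 without AT7519 replicate 1, 4 without Combination replicate 2, 6 with equal totals, 5 with equal upper quartiles and 0 with limma without a variance trend, where NUP153 had an adjusted p of 0.0539. Of the 11 calls, 5 were lost without AT7519 replicate 1, 3 without AT7519 replicate 2, 3 without Combination replicate 1 and 7 without Combination replicate 2.

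Whether OSMI-2 acted differently in the presence of AT7519 was tested as an interaction. By limma, 0 of 32 members were called lower (0.975% of all genes tested) and 0 higher (0.0619%), and at an unadjusted p below 0.05 limma gave 2 lower (6.47%) and 0 higher (3.65%). These were NUP153, at -0.55 (95% interval -0.89 to -0.20, adjusted p = 0.156), and POM121C, at -0.37 (95% interval -0.67 to -0.076, adjusted p = 0.316). From recovered reads, edgeR called 0 members lower (0.866% of all genes tested) and 0 higher (0.0825%). DESeq2 called 1 of 32 lower (2.57% of all genes tested) and 0 higher (0.309%), the 1 being NUP153, at -0.56 (adjusted p = 0.0289). NUP153 was also called by limma without Combination replicate 1 (-0.72, adjusted p = 0.0244). For NUP153 the fitted effect of OSMI-2 was -0.74 on top of AT7519 and -0.19 without it, and for NUP35 it was -0.80 on top of AT7519 and -0.44 without it, with an interaction of -0.36 (95% interval -0.77 to 0.043, adjusted p = 0.588).

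The estimates of the OSMI-2 effect with AT7519 and without it share no library. Over the 32 members they had a Pearson correlation of 0.588 and a Spearman correlation of 0.591 across genes, against 0.351 (Pearson) and 0.451 (Spearman) over the 19393 genes tested. Genes are not independent replicates, and all points share the scaling of the 8 libraries. Both estimates were below 0 in 25 of 32 members (78.1%), against 37.8% of all genes tested. The exceptions among the members included AAAS, at 0.094 with AT7519 and -0.013 without it, and NUP107, at 0.0082 with AT7519 and -0.20 without it.

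**Figure D4:**
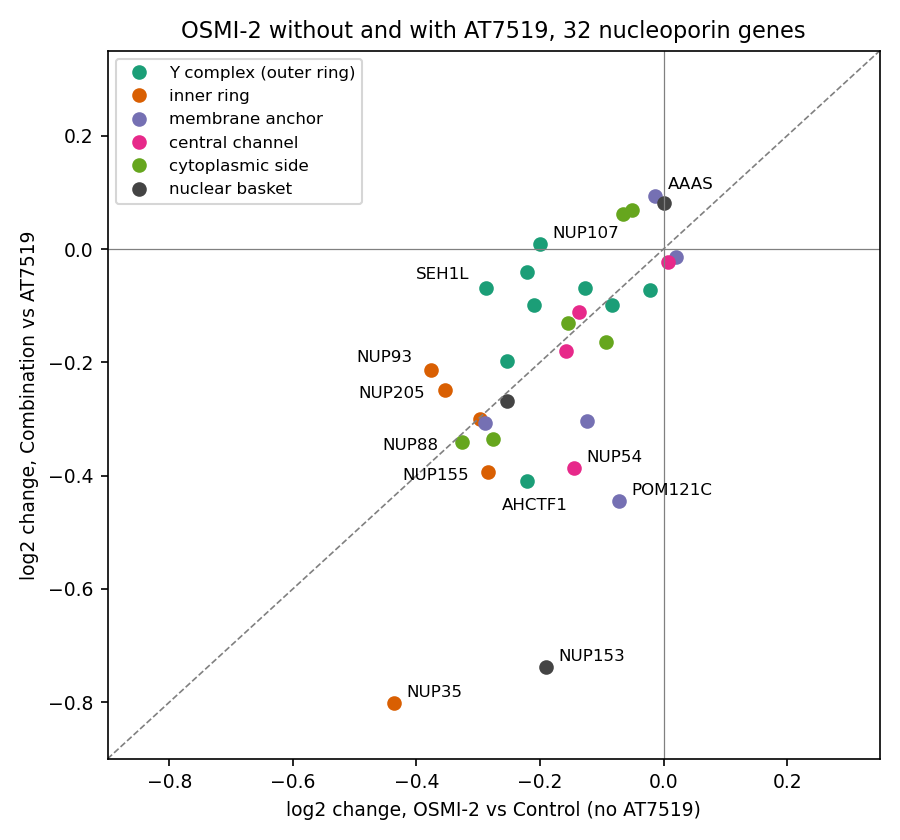
Each point is 1 of 32 nucleoporin genes, coloured by place in the pore, with the log2 change of OSMI-2 against Control on the horizontal axis and of the Combination against AT7519 on the vertical axis. Points below the dashed line of equality had a lower value with AT7519 present. NUP35 and NUP153 lie lowest, and 25 of the 32 points are below 0 on both axes.

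With AT7519 on top of OSMI-2, NUP153 fell 3.29-fold in Combination libraries against OSMI-2 libraries, AHCTF1 2.62-fold and POM121 2.44-fold, and SEC13 rose 1.38-fold. Of 32 members, 12 fell (27.3% of all genes tested) and 10 rose (27.5% of all genes tested). The share that rose was near that of all genes. Equal totals gave 22 falls (40.5%) and 0 rises (11%), and equal mitochondrial mRNAs 32 falls (69.7%) and 0 rises (2.17%). The median log2 change was -0.096 over the members and 0.036 over all genes tested. With equal totals these were -0.43 and -0.30, with equal mitochondrial mRNAs -0.95 and -0.81, and with equal upper quartiles -0.018 and 0.11. The rises numbered 6 without OSMI-2 replicate 2 and 6 without Combination replicate 1. NUP93, which did not pass the test with AT7519 alone, rose here by 0.28 (SE 0.091, adjusted p = 0.0189), lost without OSMI-2 replicate 2 or either Combination library (adjusted p up to 0.199) and -0.057 with equal totals. This effect of AT7519 shares no library with that of AT7519 against Control, and across genes the Pearson correlation between them was 0.957 over the 32 members and 0.846 over all genes tested.

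Gene length accompanied the AT7519 change only weakly. The Spearman correlation between the length of the gene and its log2 change with AT7519 was -0.24 over the 32 members and -0.19 over 12743 protein-coding genes. For the length of exons it was -0.32 over the members and -0.20 over the same protein-coding genes. Among the longest members, NUP98 (127 kilobases), NUP214 (109), AHCTF1 (92.9) and NUP153 (91.8) fell with AT7519. NUP210 (104) rose, and NUP93 (120) and NUP205 (90.8) were not called.

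The proteins that pass through or surround the pore were counted from general lists. Among 31 nuclear transport receptors and Ran cycle genes, 13 fell and 7 rose with the Combination (27.6% and 26.3% of all genes tested), 8 fell with OSMI-2 (2.38%), and 4 fell and 9 rose with AT7519 (27.2% and 26%), all against Control. The balance depended on the scaling. With equal totals 20 were lower and 1 higher with the Combination (38% and 13.7% of all genes tested). With AT7519 these were 21 lower and 4 higher (43.1% and 10.5%). With equal mitochondrial mRNAs 30 were lower and 0 higher with the Combination (75.2% and 2.19%), and 28 lower and 0 higher with AT7519 (75.6% and 1.97%). In Combination against AT7519 libraries, 16 of the 31 fell and 0 rose (12.5% and 7.21% of all genes tested). Their median log2 change was -0.24, against -0.17 over the nucleoporins. With equal totals 10 were lower and 1 higher (7.91% and 10.4%), and with equal upper quartiles 8 lower and 2 higher (7.43% and 11.3%). Without a variance trend 3 were lower (2.58%). The count of falls with OSMI-2 against Control was 4 with equal totals (0.608% of all genes tested) and 5 with equal upper quartiles (0.794%). It was 13 with equal mitochondrial mRNAs (6.05%) and 0 without a variance trend (0%). With OSMI-2 the exportin CSE1L, which returns importin alpha to the cytoplasm, changed by -0.54 (SE 0.078, adjusted p = 0.00579) and the importin KPNA2 by -0.49 (SE 0.079, adjusted p = 0.0089). That count of 8 dropped to 5 (Control replicate 1 left out), 4 (OSMI-2 replicate 1 left out) and 0 (Control replicate 2 or OSMI-2 replicate 2 left out). With AT7519, IPO4, an importin of histones, rose by 1.54 (SE 0.35, adjusted p = 0.00183) and RANBP1, a cofactor of Ran, by 0.83, while the importin KPNA5 fell by a log2 change of -1.23 and the exportin XPO7 by -0.30. The 4 falls were 2 without Control replicate 2.

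Of 23 mRNA export factors, 13 rose and 1 fell with AT7519 against Control (26% and 27.2% of all genes tested). But 3 were higher and 8 lower with equal totals (10.5% and 43.1%), and 2 higher and 19 lower with equal mitochondrial mRNAs (1.97% and 75.6%). The rises were led by SARNP (1.80) and the helicase DDX39A (1.23), both partners in the export machinery, and ZC3H11A fell by a log2 change of -0.81. With OSMI-2 2 of the 23 fell, THOC7 of the THO complex (-0.37) and the cap-binding protein NCBP1 (-0.34), where 2.38% of all genes tested fell. This count was 0 with equal totals, with equal upper quartiles, without a filter or without a variance trend, and it ranged between 0 and 4 when single libraries were left out. Of 18 lamina and LINC complex genes, 5 rose and 5 fell with AT7519 (26% and 27.2% of all genes tested). With equal totals 1 was higher and 12 lower (10.5% and 43.1%), and with equal mitochondrial mRNAs 0 higher and 18 lower (1.97% and 75.6%). Among the calls were BANF1 (0.65), LMNA (0.46), LEMD3 (-1.02) and SYNE1 (-0.89). The lamina falls numbered 2 without Control replicate 1 and 3 without Control replicate 2 or AT7519 replicate 2, and the rises 3 without Control replicate 2.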

How the data were processed

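The deposited table gives a signal per gene and library, namely read counts that the authors divided by 1 factor per library. The submitters' processing notes name the builds hg19 and GRCh37 and the tools STAR, HTSeq and DESeq2. No source used here gives tool versions, the annotation or the strand setting. Libraries were strand-specific TruSeq preparations, per the labels' protocols. All deposited values were whole multiples of 1 read per library, within a tolerance of 0.01 (100% of values), so that reads were recovered for edgeR 4.0.16 and DESeq2 1.42.0 as alternatives. Of the lines, 28 held no gene name and were left out.

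Testing covered the 19393 genes, all 32 members among them, whose normalised counts averaged at least 10. A single model of the 4 group means was fitted to log2(value + 1) in limma 3.58.1 under R 4.3.3, allowing for a mean-variance trend. Benjamini-Hochberg adjustment of two-sided p-values ran over all genes tested, and an adjusted p below 0.05 is a call. Each fold change was computed from the fitted log2 value. Replicates differed by more than counting error, the chi-square divided by its degrees of freedom being 18.8 to 29.4.

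Alternatives were other pseudocounts, filters, scalings, tools, a replicate block and leaving out each library. Recovered depth limits no nucleoporin value. The genes and lists were chosen with earlier results of these data known. Values in every library are given, for each comparison against Control, for the called members with the largest changes (up to 3 rises and 3 falls), for up to 4 called in Combination against AT7519, and for NUP62, NUP98, NUP153, NUP214, RANBP2 and TPR. Of each further list, up to 2 of the largest called rises and falls are named. Lengths and overlaps come from GENCODE 29 by symbol.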

Additional observations from a re-analysis of the deposited data

How the results depend on the processing

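Of 82 calls of single nucleoporin genes, 37 held under every alternative tried and 53 without each library in turn. Of 1722 alternative values of these calls, 1522 kept direction and call, 165 lost the call and 35 changed sign. The falls of AHCTF1, NUP153, POM121, POM121C, NUP160, NUP54, NUP98, NUP214 and RANBP2 in both comparisons of AT7519-treated cells with Control are among those that held throughout.

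All 35 changes of sign came from 2 scalings. With equal totals, the log2 change of AT7519 against Control was for NUP107 -0.13, NUP85 -0.10, NUP188 -0.0055, NDC1 -0.035, AAAS -0.079 and NUP88 -0.021. That of the Combination was for NUP107 -0.037 against Control, and for NUP85 -0.037, NUP93 -0.057, NDC1 -0.043, NUP88 -0.027 and RAE1 -0.029 against OSMI-2. With equal mitochondrial mRNAs, AT7519 against Control gave NUP107 -0.70, NUP85 -0.67, SEC13 -0.40, NUP188 -0.58, NDC1 -0.61, NUP210 -0.46, AAAS -0.65, NUP88 -0.59 and RAE1 -0.55. The Combination then gave NUP107 -0.76, SEC13 -0.53, NUP210 -0.53 and AAAS -0.62 against Control, and NUP107 -0.43, NUP85 -0.56, SEC13 -0.39, NUP93 -0.58, NUP188 -0.52, NDC1 -0.56, NUP210 -0.43, AAAS -0.48, NUP88 -0.55 and RAE1 -0.55 against OSMI-2. Which scaling is right cannot be told without a spike-in or cell counts, which were not used here.

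Members lower with OSMI-2 against Control numbered 0 without a filter (0.216% of all genes tested) or without a variance trend (0%). They also numbered 0 with equal totals (0.608%) or equal upper quartiles (0.794%). They numbered 4 with a mean of at least 50 (3.86%) and 8 with equal mitochondrial mRNAs (6.05%). DESeq2 gave 10 (5.68%), and a fit with only the groups compared gave 7 (4.85%). With AT7519 against Control, higher members numbered 0 with equal totals (10.5% of all genes tested), 0 with equal mitochondrial mRNAs (1.97%) and 5 without a variance trend (22.8%). Lower members numbered 32 with equal mitochondrial mRNAs (75.6%). The Combination against Control gave 0 higher members with equal totals (13.7%) and 0 higher (2.19%) and 32 lower (75.2%) with equal mitochondrial mRNAs. Against AT7519 it gave 6 lower members with equal totals (7.91%), 5 with equal upper quartiles (7.43%) and 0 without a variance trend (2.58%). Against OSMI-2 it gave 0 higher (11%) and 22 lower (40.5%) with equal totals and 0 higher (2.17%) and 32 lower (69.7%) with equal mitochondrial mRNAs. DESeq2 called 1 member lower in the interaction, NUP153, where 2.57% of all genes tested were lower. The cause was not tested in any of these.

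Leaving out 1 library at a time gave 0 to 6 members lower with OSMI-2, 4 to 9 higher and 11 to 16 lower with AT7519, 3 to 4 higher and 15 to 18 lower with the Combination, 4 to 11 lower for the Combination against AT7519, 6 to 10 higher and 11 to 13 lower for the Combination against OSMI-2, and 0 to 1 lower in the interaction. Where a group then had 1 library, it was assumed to vary like the others.

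With the replicate number as a block, 3 members were called lower with OSMI-2 (3.36% of all genes tested). With AT7519, 9 were higher (26.8%) and 16 lower (28.2%). With the Combination, 4 were higher (27.1%) and 19 lower (28.3%). For the Combination against AT7519, 13 were lower (13.6%), and against OSMI-2 10 were higher (28.4%) and 13 lower (28%). In the interaction 0 were called, where 1.89% of all genes tested were lower and 0.196% higher. The correlation between groups of the difference between replicates was 0.0207 to 0.123 over 19393 genes. Whether same-numbered libraries share more than a number cannot be told from these correlations. With 2 libraries a group, the precision rests on the spread pooled over all groups.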
